A study of Mus musculus with 10 samples.

Results

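DNA replication and S phase genes were examined across 5 groups of cultured mouse CD8+ T cells. The set holds 52 genes taken by symbol from the 23992 symbols of the deposited tables, and each gene is represented by its transcript with the most reads over the 10 libraries. All 52 were listed and all 52 passed the filter on low counts. They fall into 11 roles, which run from origin licensing and the MCM2-7 helicase through the polymerases, clamp, RPA and ligase to deoxynucleotide supply, chromatin assembly, E2F activators and fork protection.

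A cell that is to copy its genome first licenses its origins in G1, when the origin recognition complex, Cdc6 and Cdt1 load the MCM2-7 ring onto DNA. At the start of S phase Cdc45, the GINS complex and Mcm10 turn the ring into a moving helicase, and primase, polymerases, PCNA, RPA, FEN1 and DNA ligase I copy the strands behind it. Many of these genes are transcribed by E2F factors as a cell passes from G1 into S phase, and CD8+ T cells, which divide quickly once activated, use IL-2 as a growth factor.

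The CD8+ T cells were isolated from C57BL/6N spleens with an EasySep kit and activated for 48 h with plate-bound anti-CD3 and soluble anti-CD28 (2 µg/ml each). Cells were then pooled, washed and kept for a further 48 h under 1 of 5 conditions, each with 2 libraries. Cells of the IL-21 + LDHi group received mouse IL-21 (100 ng/ml) and NCI-737, an inhibitor of lactate dehydrogenase (LDHi, 1 µM), and cells of the IL-21 group received IL-21 alone. The IL-2 + LDHi group received human IL-2 (100 IU/ml) with the inhibitor, the IL-2 group received IL-2 alone, and the last group received no cytokine. The inhibitor was present during activation as well as afterwards, and no group had it without a cytokine, so its action on activation and its action on the cytokine response cannot be told apart. The labels do not say whether the 2 libraries of a group came from separate mice or cultures, so every p-value here reflects the scatter of these libraries alone, and that scatter may be technical.

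Levels are RPKM, reads scaled to transcript length and to library total, given for replicate 1 and then replicate 2. Changes are log2 fold changes ± SE from edgeR's quasi-likelihood test on the read counts, with p-values adjusted by Benjamini-Hochberg over 14357 genes, and a gene was called when its adjusted p was below 0.05. The authors' totals were 45138204 to 62848913 reads per library, of which 27137191 to 46656183 lay on the transcripts used. IL-21 replicate 2 had the smallest share there (59.9%), and the replicates of IL-21 differed most across all genes. Every one of 10 CD8+ T cell markers was detected in each group, at summed levels of 1862 to 2598 RPKM. Markers of other cells moved with the groups. The 7 granulocyte, basophil and mast cell markers summed to 0.923 to 1.53 RPKM in IL-21 + LDHi (S100a8 and S100a9 at 0 reads), 104.7 to 135.1 in IL-21, 1.54 to 1.57 in IL-2 + LDHi (S100a8 at 0 reads), 3.98 to 4.26 in IL-2 and 322 to 662 without cytokine. Of 8 monocyte and macrophage markers 7 were listed, and they summed to 5.76 to 7.504 RPKM in IL-21 + LDHi, 45.9 to 50.7 in IL-21, 10.7 to 16.2 in IL-2 + LDHi, 11.3 to 13.9 in IL-2 and 129 to 171 without cytokine. The 2 NK cell markers (Ncr1 and Klrb1c) summed to 0.317 to 0.367 RPKM in IL-21 + LDHi, 0.682 to 1.02 in IL-21, 8.09 to 8.87 in IL-2 + LDHi, 0.845 to 0.858 in IL-2 and 0.558 to 0.638 without cytokine. The 6 B cell markers differed between the replicates of 3 groups, and they summed to 6.14 to 17.9 RPKM in IL-21 + LDHi, 4.97 to 19.8 in IL-21, 8.17 to 9.03 in IL-2 + LDHi, 8.46 to 9.38 in IL-2 and 8.77 to 19.99 without cytokine. The part of these cells in the results was not tested.

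The replication genes were highest in the 2 IL-2 groups and lowest in IL-21 + LDHi. Summed over the 52 genes, the level was 571 and 573 RPKM with IL-21 + LDHi, 971 and 714 with IL-21 alone, 1755 and 1826 with IL-2 + LDHi, 2040.3 and 1751 with IL-2 alone, and 735 and 775 without cytokine. Both IL-21 + LDHi libraries lay below all others, both pairs of IL-2 libraries lay above all others and overlapped each other, and IL-21 overlapped the cells without cytokine. By group mean, 43 of the 52 genes were lowest in IL-21 + LDHi, 4 in IL-21 and 5 without cytokine. The highest mean was in IL-2 for 32 genes and in IL-2 + LDHi for 18, and the exceptions were E2f2 (IL-21) and Pole2 (IL-21 + LDHi). In bulk RNA, fewer cells in S phase and less transcript per cell cannot be told apart.

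**Figure D1:**
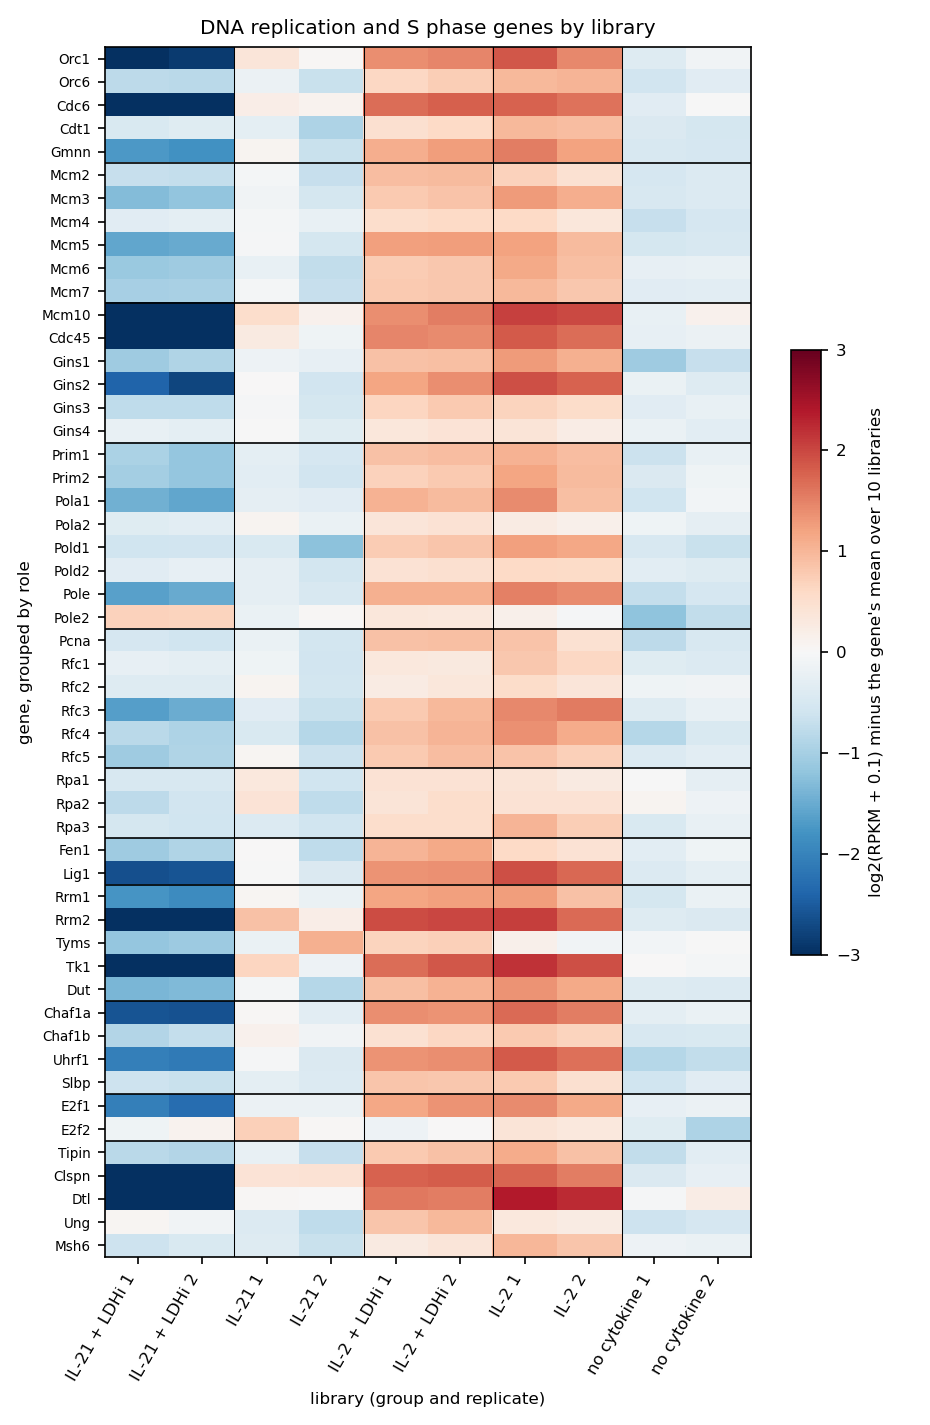
Level of the 52 genes (rows, grouped by role) in the 10 libraries (columns), as log2(RPKM + 0.1) minus the gene's mean over the libraries, with colours saturating at -3 and 3. The 4 IL-2 columns are above the gene means for most rows, and the 2 IL-21 + LDHi columns hold the lowest group mean for 43 of the 52 rows.

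Against no cytokine, 49 of the 52 genes rose in IL-2, where 25.6% of all genes tested were called higher, and 41 of the 49 rose at least 2-fold (13.4% of all genes did). By edgeR 0 members were lower (24.8% of all genes), with 0 at an unadjusted p below 0.05, 0 by DESeq2 and 0 by limma. The median log2 fold change was 1.42 for the members and -0.03 for all genes. Rpa1, Rpa2 and Tyms were the 3 members without a call. The granulocyte and macrophage marker sums were far lower in IL-2 than without cytokine, and their part in these calls was not tested. The inhibitor left this rise largely in place: 47 members were higher in IL-2 + LDHi than without cytokine, with a median of 1.27, against 10.9% of all genes. Again 0 members were lower by edgeR (13.3% of all genes), with 0 at an unadjusted p below 0.05, 0 by DESeq2 and 0 by limma.

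In IL-21 the same genes stood much nearer to the cells without cytokine. Only 8 were called higher than without cytokine, 5.65% of all genes were, and the median was 0.23. By edgeR 0 were called lower, where 5.9% of all genes were, with 0 at an unadjusted p below 0.05, 0 by DESeq2 and 0 by limma. Against IL-2, 45 of the 52 were lower in IL-21, where 24.7% of all genes were lower, and the median was -1.22. By edgeR 0 were higher (24.9% of all genes), again with 0 at an unadjusted p below 0.05, 0 by DESeq2 and 0 by limma.

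With the inhibitor, 33 of the 52 genes fell in IL-21 and 2 rose, where 20.3% of all genes were lower and 11.1% higher. The fall was at least 2-fold for 20 genes (14.9% of all genes), at least 4-fold for 12 (10.3%) and at least 8-fold for 8 (6.54%), with a median of -0.70 for the members. In IL-2, 13 members fell with it and 2 rose, where 21.6% of all genes were lower and 17.8% higher, and no member moved 2-fold. The NK cell marker sum was also higher in IL-2 + LDHi than in IL-2, and its part in these calls was not tested. Scaled by library size alone, 6 members fell and 4 rose there. The test of the difference between the 2 inhibitor effects called 25 members more strongly lowered in IL-21 and 3 the other way, against 13.8% and 7.98% of all genes. Scaled by library size alone, these counts were 28 and 0. With inhibitor in both, 50 members were lower in IL-21 + LDHi than in IL-2 + LDHi (median -1.67, 16.7% of all genes). By edgeR 0 were called higher (9.39% of all genes), with 1 at an unadjusted p below 0.05 (Pole2), 0 by DESeq2 and 0 by limma. Against no cytokine, IL-21 + LDHi had 27 members lower and 4 higher, where 23.6% of all genes were lower and 13.5% higher.

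**Figure D2:**
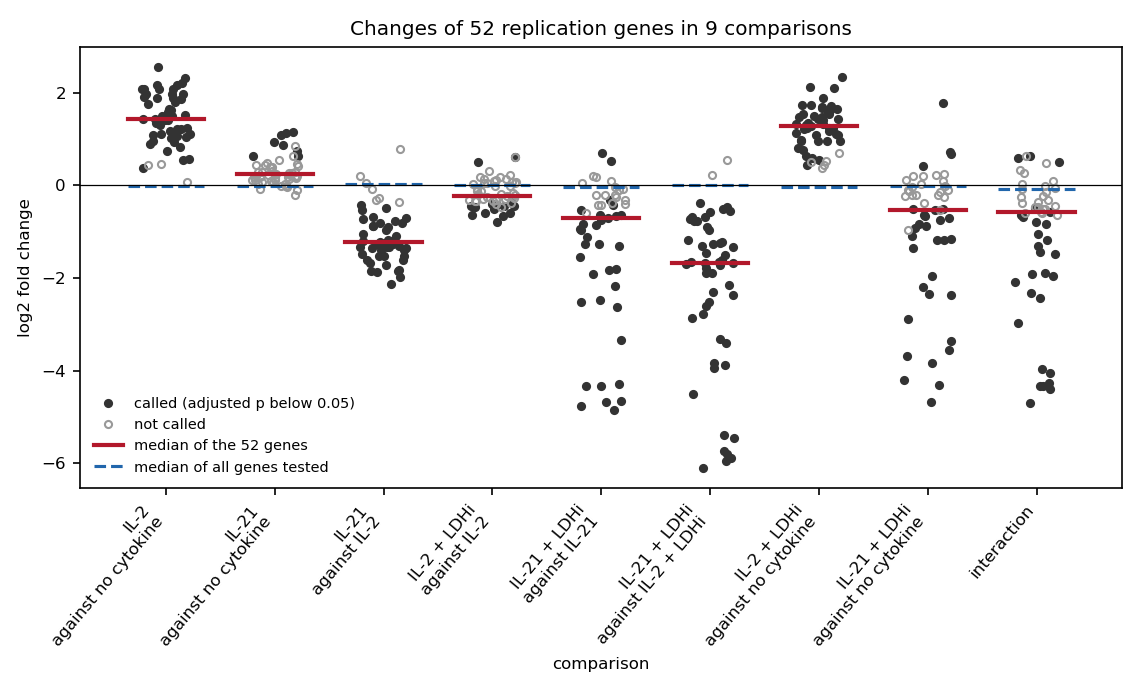
Log2 fold changes of the 52 genes in 9 comparisons, 1 point per gene, filled when called, with the median of the 52 genes as a red line and that of all genes tested as blue dashes. The points of IL-2 against no cytokine all lie above 0, and those of IL-21 + LDHi against IL-21 run from 0.70 down to -4.86.

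Promoters of members are shown because E2F factors drive many of these genes. RefSeq windows (GRCm38.p6) of 300 bases, 250 before and 50 after the start, were found for 43 of the 52 genes, 50 windows in all. The E2F words searched were TTTCCCGC, TTTGGCGC, TTTGCCGC and TTTCGCGC, on both strands, together with CCAAT and the cell cycle homology word TTTGAA, also on both strands. An E2F word stood in 36.0% of the member windows and in 2.26% of all 32851 windows, CCAAT in 62.0% against 37.4%, and TTTGAA in 6 of 50 against 17.9%. By response to the inhibitor in IL-21, the share with an E2F word was 38.5% for genes that fell at least 4-fold, 40.0% for those that fell less and 26.7% for those not called, and 1 of the 2 genes that rose had one. The windows printed belong to the members with the highest level in 6 roles, and to Cdc6 and Dtl, which were chosen after their values were seen. E2F and CCAAT words are in capitals, the rest in lower case, and in Mcm6 the first 2 E2F words overlap:
Mcm6 (chr1:128359656-128359955, - strand): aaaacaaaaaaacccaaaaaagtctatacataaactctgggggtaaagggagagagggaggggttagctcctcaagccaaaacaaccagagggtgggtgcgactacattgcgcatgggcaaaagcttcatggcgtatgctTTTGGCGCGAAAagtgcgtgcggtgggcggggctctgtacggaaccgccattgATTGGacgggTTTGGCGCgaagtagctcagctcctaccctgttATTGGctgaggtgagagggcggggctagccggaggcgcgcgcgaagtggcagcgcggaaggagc
Pcna (chr2:132253131-132253430, - strand): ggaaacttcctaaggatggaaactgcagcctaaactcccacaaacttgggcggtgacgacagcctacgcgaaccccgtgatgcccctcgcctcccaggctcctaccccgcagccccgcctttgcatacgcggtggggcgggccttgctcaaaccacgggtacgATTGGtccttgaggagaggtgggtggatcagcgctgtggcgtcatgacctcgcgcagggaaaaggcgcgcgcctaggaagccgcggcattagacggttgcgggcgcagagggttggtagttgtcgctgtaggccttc
Rpa1 (chr11:75348334-75348633, - strand): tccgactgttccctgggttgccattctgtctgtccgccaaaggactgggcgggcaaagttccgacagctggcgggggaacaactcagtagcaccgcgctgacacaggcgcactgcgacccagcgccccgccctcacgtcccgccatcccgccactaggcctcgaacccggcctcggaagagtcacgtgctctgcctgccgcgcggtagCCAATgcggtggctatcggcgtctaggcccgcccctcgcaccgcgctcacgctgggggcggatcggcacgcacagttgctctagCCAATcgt
Lig1 (chr7:13276925-13277224, + strand): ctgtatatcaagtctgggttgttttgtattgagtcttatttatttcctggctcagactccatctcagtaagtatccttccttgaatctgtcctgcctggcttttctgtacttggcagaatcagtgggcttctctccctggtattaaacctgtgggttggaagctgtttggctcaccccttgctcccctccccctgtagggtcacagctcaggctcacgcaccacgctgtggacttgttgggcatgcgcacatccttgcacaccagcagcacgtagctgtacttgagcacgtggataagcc
Rrm2 (chr12:24708004-24708303, + strand): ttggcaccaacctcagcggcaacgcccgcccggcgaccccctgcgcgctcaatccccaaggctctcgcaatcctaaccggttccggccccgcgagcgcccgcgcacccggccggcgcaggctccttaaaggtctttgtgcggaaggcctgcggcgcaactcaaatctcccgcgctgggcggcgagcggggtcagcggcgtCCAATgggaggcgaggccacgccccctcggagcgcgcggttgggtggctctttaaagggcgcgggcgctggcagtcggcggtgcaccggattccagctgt
Slbp (chr5:33652525-33652824, - strand): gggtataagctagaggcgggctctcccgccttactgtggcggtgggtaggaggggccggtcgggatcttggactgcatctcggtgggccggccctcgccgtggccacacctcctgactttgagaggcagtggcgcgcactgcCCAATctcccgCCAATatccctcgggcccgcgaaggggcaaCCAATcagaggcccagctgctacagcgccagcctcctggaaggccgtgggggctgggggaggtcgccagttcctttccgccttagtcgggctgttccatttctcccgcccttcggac
Cdc6 (chr11:98907901-98908200, + strand): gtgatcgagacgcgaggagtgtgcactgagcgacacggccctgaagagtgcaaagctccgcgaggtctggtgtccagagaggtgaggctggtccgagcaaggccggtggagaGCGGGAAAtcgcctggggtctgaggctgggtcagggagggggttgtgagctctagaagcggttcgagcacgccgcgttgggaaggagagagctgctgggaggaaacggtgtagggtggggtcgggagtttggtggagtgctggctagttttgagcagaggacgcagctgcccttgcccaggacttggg
Dtl (chr1:191575495-191575794, - strand): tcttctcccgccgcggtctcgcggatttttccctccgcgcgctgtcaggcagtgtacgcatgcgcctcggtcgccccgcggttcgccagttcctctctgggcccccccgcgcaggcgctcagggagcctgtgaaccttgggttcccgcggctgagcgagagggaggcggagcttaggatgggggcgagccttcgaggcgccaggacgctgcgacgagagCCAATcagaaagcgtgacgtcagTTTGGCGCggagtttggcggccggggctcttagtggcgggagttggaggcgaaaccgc
The E2F word of Cdc6 begins at -138 from the start and that of Dtl at -8. The Cdc6 window is the only 1 listed and lies inside the gene's own listed span, which begins at 98907709. The Lig1 window is the first of 3 listed and holds neither word, while another Lig1 window holds an E2F word. A match describes the letters in the window and no more.

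Among the 5 origin licensing genes, all 5 rose in IL-2 and 4 fell with the inhibitor in IL-21. Gmnn (chromosome 13, 24751845 to 24761937, - strand, mm10 as the files give it) encodes geminin, which blocks relicensing by binding Cdt1. It stood at 5.09 and 4.78 RPKM with IL-21 + LDHi, 18.1 and 10.7 with IL-21 alone, 36.5 and 40.5 with IL-2 + LDHi, 49.4 and 39.3 with IL-2 alone, and 12.04 and 12 without cytokine. Its IL-21 + LDHi libraries lay below all others, and IL-21 overlapped no cytokine. The change with inhibitor was -1.55 ± 0.18 (adjusted p = 0.000271) in IL-21 and -0.25 ± 0.17 (adjusted p = 0.292) in IL-2. Cdc6, the ATPase that helps load MCM2-7, fell by far more: it stood at 0.153 and 0.114 RPKM with IL-21 + LDHi, 2.74 and 2.54 with IL-21 alone, 7.77 and 8.44 with IL-2 + LDHi, 8.29 and 7.54 with IL-2 alone, and 1.85 and 2.35 without cytokine. Its change in IL-21 was -4.34 ± 0.21 (adjusted p = 1.42e-06), with the lowest library at 26 reads, against -0.01 ± 0.16 (adjusted p = 0.979) in IL-2. Orc1, the origin recognition subunit that varies over the cycle, changed by -4.32 ± 0.29 (adjusted p = 8.06e-06) in IL-21 and rests on as few as 9 reads in a library. Orc1 shares 11.9% of its exonic bases with Gm12743 on the opposite strand. Orc6, another subunit, changed by -0.42 ± 0.13 (adjusted p = 0.0400). Cdt1, the partner of Cdc6 in loading, did not follow them. Its levels were 13.7 and 14.7 RPKM with IL-21 + LDHi, 15.3 and 9.77 with IL-21 alone, 26.2 and 28.5 with IL-2 + LDHi, 37.03 and 35.9 with IL-2 alone, and 13.9 and 12.9 without cytokine. The IL-21 + LDHi, IL-21 and no cytokine libraries of Cdt1 overlapped, and the call there was 0.17 ± 0.13 (adjusted p = 0.345), while in IL-2 it fell with the inhibitor, -0.46 ± 0.13 (adjusted p = 0.0183).

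The 6 MCM2-7 helicase subunits all rose in IL-2, and 4 of them fell with the inhibitor in IL-21, none of them 4-fold. Mcm6, the subunit with the highest level (chromosome 1, 128331575 to 128359705, - strand), stood at 27.04 and 27.99 RPKM with IL-21 + LDHi, 50.3 and 35.1 with IL-21 alone, 99.6 and 102 with IL-2 + LDHi, 129 and 111 with IL-2 alone, and 49.8 and 50.4 without cytokine. The IL-21 + LDHi libraries of Mcm6 lay below all others, with a change of -0.65 ± 0.12 (adjusted p = 0.00332), and IL-21 overlapped no cytokine. Mcm5 had the largest change of the ring in IL-21, -1.31 ± 0.12 (adjusted p = 6.27e-05), and Mcm3 changed by -0.97 ± 0.11 (adjusted p = 0.000179). Mcm7, which also fell, shares 13.0% of its exonic bases with Ap4m1 and Cops6 on the opposite strand. Mcm2 and Mcm4 were not called, at -0.38 ± 0.14 (adjusted p = 0.0635) and -0.22 ± 0.12 (adjusted p = 0.215). Mcm4 is also 1 of the 4 members higher in IL-21 + LDHi than without cytokine. Its levels were 32.04 and 33.1 RPKM with IL-21 + LDHi, 39 and 34.8 with IL-21 alone, 58.6 and 60.6 with IL-2 + LDHi, 60.95 and 51.3 with IL-2 alone, and 25.1 and 28.4 without cytokine. Both IL-21 + LDHi libraries of Mcm4 lay above both libraries without cytokine, and the difference was 0.41 ± 0.12 (adjusted p = 0.0293). This call was lost under 7 of 19 alternatives, with an adjusted p of up to 0.155.

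Among the helicase activation genes was Mcm10, the member with the most negative change with the inhibitor in IL-21. Mcm10, which helps switch on the helicase at the origin, stood at 0.111 and 0.1598 RPKM with IL-21 + LDHi, 4.45 and 3.32 with IL-21 alone, 8.17 and 8.97 with IL-2 + LDHi, 12.9 and 12.3 with IL-2 alone, and 2.6 and 3.32 without cytokine. Both IL-21 + LDHi libraries were far below every other library, at 19 reads in the lower one, and the change was -4.86 ± 0.21 (adjusted p = 8.46e-07). Cdc45, a core part of the moving helicase, changed by -3.33 ± 0.14 (adjusted p = 6.98e-07). The 4 GINS subunits, which form 1 complex with Cdc45 and MCM2-7, did not move alike. Gins2 stood at 0.687 and 0.519 RPKM with IL-21 + LDHi, 4.13 and 2.699 with IL-21 alone, 9.37 and 10.9 with IL-2 + LDHi, 15.9 and 14.1 with IL-2 alone, and 3.54 and 3.12 without cytokine, and changed by -2.51 ± 0.22 (adjusted p = 4.42e-05). Gins4, the subunit with the highest level, stood at 14.1 and 13.3 RPKM with IL-21 + LDHi, 16.3 and 12.8 with IL-21 alone, 20.8 and 21.9 with IL-2 + LDHi, 21.4 and 19.01 with IL-2 alone, and 14.3 and 13.2 without cytokine. Its IL-21 + LDHi, IL-21 and no cytokine libraries overlapped, with a change of -0.11 ± 0.12 (adjusted p = 0.508). Gins1 and Gins3 lay between them, at -0.85 ± 0.20 (adjusted p = 0.0104) and -0.54 ± 0.15 (adjusted p = 0.0219). Exons of Gins2 share 70.7% of their bases with Gse1 on the opposite strand, and since no source used here gives the strand setting of the counting, their reads cannot be told apart.

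Of the 8 primase and polymerase genes all 8 rose in IL-2, and with the inhibitor in IL-21 5 fell and 1 rose. Pola2, the accessory subunit of polymerase alpha and the role's highest gene, stood at 15.3 and 15.8 RPKM with IL-21 + LDHi, 20.8 and 17.1 with IL-21 alone, 25.5 and 26.7 with IL-2 + LDHi, 23.2 and 21.8 with IL-2 alone, and 18.1 and 16.2 without cytokine. The IL-21 + LDHi libraries of Pola2 lay just below all others, with a change of -0.32 ± 0.10 (adjusted p = 0.0375). Pola1, the catalytic subunit, changed by -1.27 ± 0.22 (adjusted p = 0.00262), and the primase genes Prim1 and Prim2 by -0.70 ± 0.16 (adjusted p = 0.00945) and -0.70 ± 0.15 (adjusted p = 0.00822). Polymerase epsilon split between its subunits. Pole, which carries the catalytic site of the leading strand enzyme, changed by -1.26 ± 0.11 (adjusted p = 4.60e-05). Pole2, its second subunit (chromosome 12, 69201773 to 69228205, - strand), had its highest level in IL-21 + LDHi, with 19.1 and 18.7 RPKM with IL-21 + LDHi, 10.3 and 12.1 with IL-21 alone, 14.9 and 14.6 with IL-2 + LDHi, 13.2 and 11.5 with IL-2 alone, and 5.02 and 7.01 without cytokine. Both IL-21 + LDHi libraries of Pole2 lay above every other library. The rise was 0.70 ± 0.21 (adjusted p = 0.0304) over IL-21 and 1.78 ± 0.21 (adjusted p = 0.000206) over no cytokine. The rise over IL-21 was lost under at least 1 alternative and was 0.46 without IL-21 replicate 1, while that over no cytokine was kept under all 19. Exons of Pole2 share 14.4% of their bases with Gm49384 on the same strand. The polymerase delta genes Pold1 and Pold2 were not called, at 0.19 ± 0.15 (adjusted p = 0.353) and 0.08 ± 0.10 (adjusted p = 0.551).

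The clamp and its loader changed less. All 6 genes rose in IL-2, and 2 fell with the inhibitor in IL-21. Pcna, the sliding clamp and the highest member of the set, stood at 93.4 and 87.8 RPKM with IL-21 + LDHi, 115 and 90.4 with IL-21 alone, 241 and 248 with IL-2 + LDHi, 241 and 182 with IL-2 alone, and 75.99 and 94.05 without cytokine. Its IL-21 + LDHi libraries overlapped those of IL-21 and of no cytokine, and the change was -0.21 ± 0.16 (adjusted p = 0.349). The symbols Pcna-ps1 and Pcna-ps2 mark pseudogenes with which reads could be shared. Rfc3, a clamp loader subunit, stood at 2.42 and 2.71 RPKM with IL-21 + LDHi, 6.12 and 4.87 with IL-21 alone, 13.4 and 15.4 with IL-2 + LDHi, 21.1 and 23.1 with IL-2 alone, and 5.96 and 6.66 without cytokine. It was lowest in both IL-21 + LDHi libraries, and it fell with the inhibitor both in IL-21, -1.13 ± 0.15 (adjusted p = 0.000435), and in IL-2, -0.66 ± 0.14 (adjusted p = 0.00499). Rfc5 fell in IL-21 (-0.75 ± 0.15, adjusted p = 0.00530), and Rfc2 and Rfc4 were not called. Opposite-strand genes share 15.4% of the exonic bases of Rfc5 (Wsb2), 19.1% of Rfc2 (Lat2) and 13.4% of Rfc4 (Eif4a2). Rfc1, the large subunit, stood at 16.2 and 15.9 RPKM with IL-21 + LDHi, 17.7 and 12.8 with IL-21 alone, 24.1 and 23.5 with IL-2 + LDHi, 34.03 and 29.6 with IL-2 alone, and 14.9 and 14.5 without cytokine. Its IL-21 + LDHi and IL-21 libraries overlapped (0.05 ± 0.11, adjusted p = 0.761), while it fell in IL-2 (-0.46 ± 0.11, adjusted p = 0.00930).

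The 3 genes of RPA, which coats single-stranded DNA, had the lowest count of calls in IL-2 against no cytokine: 1 of 3, Rpa3, rose, and with the inhibitor in IL-21 Rpa2 and Rpa3 were not called, at -0.61 ± 0.24 (adjusted p = 0.0803) and -0.08 ± 0.15 (adjusted p = 0.726). Rpa1 stood at 41.1 and 41.4 RPKM with IL-21 + LDHi, 71.3 and 37.97 with IL-21 alone, 77.4 and 78.4 with IL-2 + LDHi, 75.2 and 69.8 with IL-2 alone, and 57.2 and 47.5 without cytokine. The IL-21 libraries spanned the widest range and overlapped IL-21 + LDHi, IL-2 and no cytokine. Rpa1 was not called either, at -0.40 ± 0.18 (adjusted p = 0.123) with inhibitor in IL-21 and 0.45 ± 0.18 (adjusted p = 0.0628) in IL-2 against no cytokine.

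**Figure D3:**
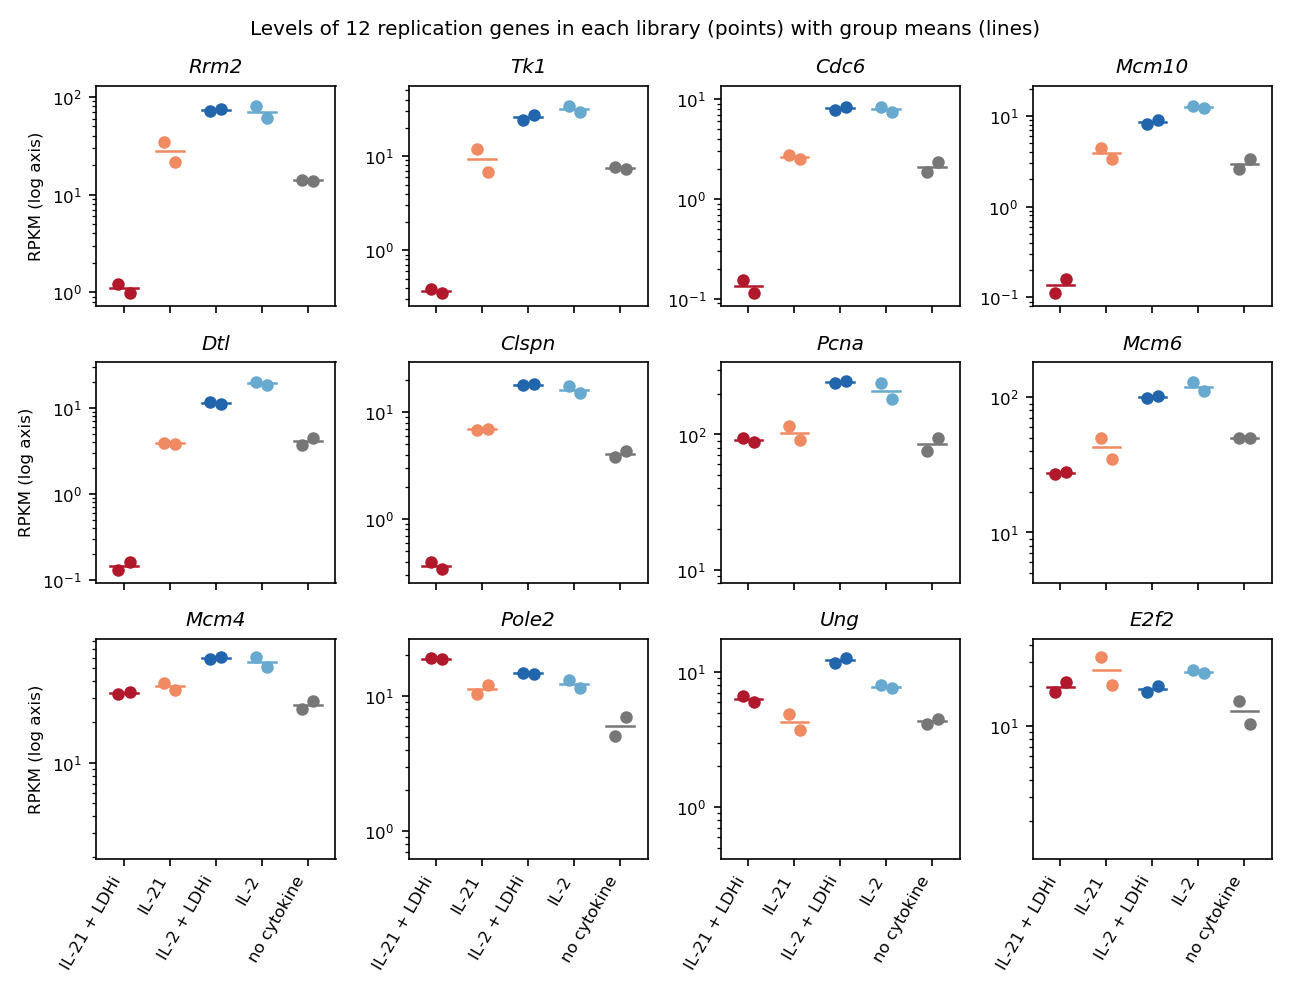
Levels in RPKM of 12 members in the 5 groups, 1 point per library and a line at the group mean, each panel with its own log axis. Rrm2, Tk1, Cdc6, Mcm10, Dtl and Clspn are lowest in IL-21 + LDHi, while Pole2 is highest there.

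Both genes of Okazaki fragment maturation fell with the inhibitor in IL-21. Lig1, the ligase that seals the fragments, stood at 2.29 and 2.35 RPKM with IL-21 + LDHi, 14.5 and 10.9 with IL-21 alone, 37.6 and 38.1 with IL-2 + LDHi, 56.1 and 48.4 with IL-2 alone, and 11.1 and 11.98 without cytokine. The IL-21 + LDHi libraries lay far below all others, and Lig1 changed by -2.47 ± 0.12 (adjusted p = 1.31e-06) in IL-21 and by -0.50 ± 0.11 (adjusted p = 0.00617) in IL-2. Fen1, the flap nuclease, stood at 6.39 and 7.14 RPKM with IL-21 + LDHi, 13.6 and 7.84 with IL-21 alone, 27.2 and 29.5 with IL-2 + LDHi, 20.5 and 18.3 with IL-2 alone, and 10.8 and 12.2 without cytokine. With the inhibitor it was lower in IL-21, -0.67 ± 0.17 (adjusted p = 0.0160), and higher in IL-2, 0.51 ± 0.17 (adjusted p = 0.0381), with no overlap between the libraries with and without inhibitor in either cytokine. Both calls of Fen1 were lost under at least 1 alternative, with an adjusted p of up to 0.114 in IL-21 and 0.193 in IL-2, and without IL-21 replicate 1 the change in IL-21 was -0.40. Exons of Fen1 share 84.2% of their bases with Gm10143 and Tmem258 on the opposite strand, so its reads cannot be told apart from theirs.

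Deoxynucleotide supply was the role with the largest loss in summed level. Its 5 genes summed to 19.1 and 18.7 RPKM with IL-21 + LDHi, 97.7 and 76.0 with IL-21 alone, 202.8 and 214.97 with IL-2 + LDHi, 231.7 and 185.5 with IL-2 alone, and 60.6 and 64.8 without cytokine, and all 5 fell with the inhibitor in IL-21. Rrm2 (chromosome 12, 24708254 to 24714146, + strand), the cell cycle regulated subunit of ribonucleotide reductase, stood at 1.22 and 0.979 RPKM with IL-21 + LDHi, 34.7 and 21.4 with IL-21 alone, 72.7 and 75.3 with IL-2 + LDHi, 80.02 and 60.9 with IL-2 alone, and 14.3 and 13.9 without cytokine. Rrm2 was near 1 RPKM in IL-21 + LDHi and above 10 in all other libraries. It rose in IL-2 by 2.31 ± 0.18 (adjusted p = 1.86e-05) and in IL-21 by 1.13 ± 0.18 (adjusted p = 0.00518) over no cytokine, changed by -4.68 ± 0.21 (adjusted p = 1.02e-06) with inhibitor in IL-21 and by 0.03 ± 0.17 (adjusted p = 0.912) in IL-2. Tk1, the S phase thymidine kinase, stood at 0.387 and 0.349 RPKM with IL-21 + LDHi, 11.9 and 6.799 with IL-21 alone, 24.3 and 27.7 with IL-2 + LDHi, 34.1 and 29.2 with IL-2 alone, and 7.68 and 7.23 without cytokine. Its lowest library held 24 reads, and the change in IL-21 was -4.66 ± 0.23 (adjusted p = 1.50e-06). Rrm1, the large reductase subunit, changed by -1.80 ± 0.16 (adjusted p = 5.09e-05), and Dut, which removes dUTP, by -0.95 ± 0.16 (adjusted p = 0.00240). Tyms, which makes thymidylate, stood at 2.96 and 3.13 RPKM with IL-21 + LDHi, 5.87 and 14.2 with IL-21 alone, 10.7 and 11.1 with IL-2 + LDHi, 7.54 and 6.29 with IL-2 alone, and 6.36 and 6.65 without cytokine. The IL-21 libraries of Tyms differed most, and the change there with the inhibitor was -1.82 ± 0.40 (adjusted p = 0.00825). Leaving out IL-21 replicate 2 made it -0.84, and leaving out IL-21 replicate 1 made it -2.40. The call was lost without either IL-21 + LDHi library or when only these 4 libraries were fitted, with an adjusted p of up to 0.0699. The transcript used for Tyms has a noncoding accession, and the symbol Tyms-ps marks a pseudogene with which reads could be shared.

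In chromatin assembly all 4 genes rose in IL-2 and 3 fell with the inhibitor in IL-21. Uhrf1, which recognises hemimethylated DNA behind the fork, had the largest rise in IL-2, 2.55 ± 0.12 (adjusted p = 2.87e-06). It stood at 3.86 and 3.67 RPKM with IL-21 + LDHi, 15.9 and 11.96 with IL-21 alone, 41.7 and 43.1 with IL-2 + LDHi, 58.9 and 51.6 with IL-2 alone, and 8.95 and 9.68 without cytokine. No 2 groups of Uhrf1 overlapped, and its change with the inhibitor was -1.91 ± 0.12 (adjusted p = 4.10e-06) in IL-21 and -0.42 ± 0.11 (adjusted p = 0.0140) in IL-2. The subunits of the CAF-1 histone chaperone differed in size of change, at -2.63 ± 0.12 (adjusted p = 1.19e-06) for Chaf1a and -0.86 ± 0.12 (adjusted p = 0.000736) for Chaf1b. Exons of Chaf1a share 33.6% of their bases with Ubxn6 on the opposite strand. Slbp, which binds the stem-loop of replication-dependent histone mRNAs, stood at 27.9 and 26.9 RPKM with IL-21 + LDHi, 34.9 and 32.2 with IL-21 alone, 76.1 and 74.5 with IL-2 + LDHi, 74.02 and 59.8 with IL-2 alone, and 28.1 and 33.6 without cytokine. Its IL-21 + LDHi libraries lay below all others, but the change was not called (-0.33 ± 0.14, adjusted p = 0.114). Slbp shares 14.4% of its exonic bases with Gm10459 on the opposite strand.

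The E2F activators split. E2f1 rose in IL-2 (1.51 ± 0.18, adjusted p = 0.000159) and fell with the inhibitor in IL-21 (-2.16 ± 0.19, adjusted p = 4.66e-05). E2f2, which had the higher level, stood at 18.05 and 21.2 RPKM with IL-21 + LDHi, 32.3 and 20.1 with IL-21 alone, 17.9 and 20.03 with IL-2 + LDHi, 26.1 and 24.7 with IL-2 alone, and 15.4 and 10.4 without cytokine. The lowest E2f2 libraries were those without cytokine, and the IL-21 + LDHi range met that of IL-21 and also that of IL-2 + LDHi. Over no cytokine the difference of E2f2 was 1.16 ± 0.19 (adjusted p = 0.00709) for IL-21 cells and 0.73 ± 0.19 (adjusted p = 0.0155) for IL-21 + LDHi cells. Both calls were lost under at least 1 alternative, and without no cytokine replicate 2 the difference for IL-21 + LDHi cells was 0.48. It was not called for the inhibitor in IL-21, -0.43 ± 0.19 (adjusted p = 0.119).

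Among fork protection, repair and turnover genes, 2 fell with the inhibitor in IL-21 and 1 rose. Dtl, the substrate receptor that marks Cdt1 for destruction in S phase, stood at 0.131 and 0.161 RPKM with IL-21 + LDHi, 3.9 and 3.83 with IL-21 alone, 11.6 and 11.1 with IL-2 + LDHi, 20.1 and 18.4 with IL-2 alone, and 3.73 and 4.49 without cytokine. Both IL-21 + LDHi libraries were below 0.2 RPKM, the lower at 27 reads, and Dtl changed by -4.76 ± 0.19 (adjusted p = 5.90e-07) in IL-21 and -0.80 ± 0.14 (adjusted p = 0.00255) in IL-2. Clspn, the checkpoint adaptor claspin, stood at 0.393 and 0.3401 RPKM with IL-21 + LDHi, 6.87 and 6.96 with IL-21 alone, 17.8 and 18.5 with IL-2 + LDHi, 17.5 and 15.05 with IL-2 alone, and 3.79 and 4.36 without cytokine. Its change was -4.28 ± 0.18 (adjusted p = 6.85e-07) in IL-21 and 0.12 ± 0.15 (adjusted p = 0.552) in IL-2. Tipin, of the fork protection complex, stood at 14.6 and 13.9 RPKM with IL-21 + LDHi, 22 and 15.96 with IL-21 alone, 44.6 and 47.7 with IL-2 + LDHi, 55.5 and 47.03 with IL-2 alone, and 15.3 and 20.8 without cytokine. Its IL-21 + LDHi libraries lay below all others, without a call (-0.43 ± 0.16, adjusted p = 0.0751). Ung, the uracil glycosylase, moved against the set, at 6.66 and 5.96 RPKM with IL-21 + LDHi, 4.84 and 3.73 with IL-21 alone, 11.6 and 12.7 with IL-2 + LDHi, 7.96 and 7.57 with IL-2 alone, and 4.15 and 4.47 without cytokine. Both inhibitor groups of Ung lay above their cytokine alone, by 0.53 ± 0.13 (adjusted p = 0.0147) in IL-21 and 0.60 ± 0.13 (adjusted p = 0.00598) in IL-2. Each of these calls was lost under at least 1 alternative. Msh6, of mismatch repair, stood at 14.2 and 15.9 RPKM with IL-21 + LDHi, 16.7 and 13.7 with IL-21 alone, 26.4 and 28.1 with IL-2 + LDHi, 43.9 and 38.8 with IL-2 alone, and 19.7 and 19.1 without cytokine. It was unlike Dtl in IL-21, where the groups overlapped (-0.05 ± 0.11, adjusted p = 0.771), while in IL-2 the inhibitor lowered it (-0.64 ± 0.11, adjusted p = 0.00158).

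**Figure D4:**
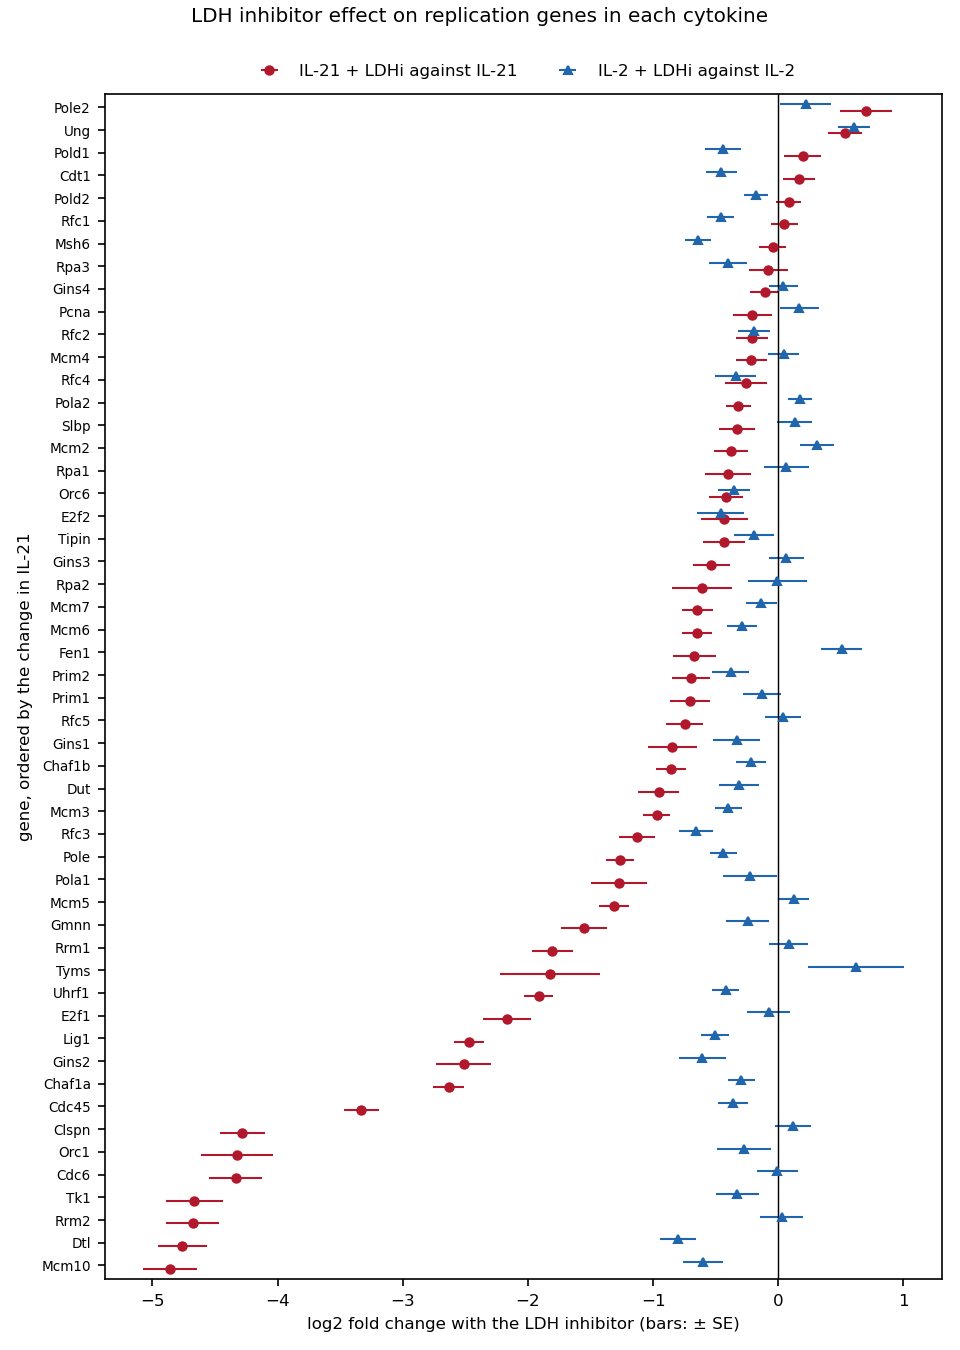
Log2 fold change with the inhibitor (± SE) for each of the 52 genes, in IL-21 (circles) and IL-2 (triangles), ordered by the change in IL-21. The IL-2 values stay between -0.80 and 0.62, while those in IL-21 run from -4.86 to 0.70.

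The difference between the inhibitor's effects was largest for Rrm2, at -4.71 ± 0.27 (adjusted p = 1.09e-05), and Clspn, at -4.40 ± 0.23 (adjusted p = 7.12e-06). It ran the other way for Cdt1, 0.62 ± 0.18 (adjusted p = 0.0359), Msh6, 0.60 ± 0.15 (adjusted p = 0.0212), and Rfc1, 0.51 ± 0.15 (adjusted p = 0.0444). Each of these 3 had been lowered in IL-2 and not called in IL-21, and each lost its call under at least 1 alternative. The 12 genes that fell at least 4-fold in IL-21 + LDHi (Orc1, Cdc6, Mcm10, Cdc45, Gins2, Lig1, Rrm2, Tk1, Chaf1a, E2f1, Clspn and Dtl) had a median level of 0.486 RPKM there, 4.53 in IL-21, 13.1 in IL-2 + LDHi, 17.0 in IL-2 and 4.09 without cytokine. All 12 kept their call under each of 19 alternatives, and they are among the 23 of 33 fallen genes that did. Orc6, Mcm7, Gins1, Gins3, Prim1, Prim2, Pola2, Rfc5, Fen1 and Tyms lost theirs under at least 1. The granulocyte and macrophage marker sums also fell with the inhibitor in IL-21, and their part in these calls was not tested.

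The 8 genes higher in IL-21 than without cytokine were Mcm4 (0.62 ± 0.12), Gins1 (0.86 ± 0.19), Pole2 (1.08 ± 0.21), Rrm2 (1.13 ± 0.18), Chaf1b (0.64 ± 0.12), Uhrf1 (0.73 ± 0.11), E2f2 (1.16 ± 0.19) and Clspn (0.93 ± 0.15). All 8 calls were lost when only these 4 libraries were fitted. Leaving out no cytokine replicate 1 gave 5 calls, and leaving out IL-21 replicate 2 gave 17.

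The 13 genes that the inhibitor lowered in IL-2 were Cdt1, Mcm3, Mcm10, Cdc45, Gins2, Pold1, Pole, Rfc1, Rfc3, Lig1, Uhrf1, Dtl and Msh6, and their changes ran from -0.80 (Dtl) to -0.36 (Cdc45). Their share lies near that of all genes. Leaving out IL-2 + LDHi replicate 1 gave 2 lower genes, IL-2 + LDHi replicate 2 or IL-2 replicate 1 gave 3, IL-2 replicate 2 gave 7, and either IL-21 library gave 21. In IL-2 itself 50 of the 52 members were higher in replicate 1.

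Across the 52 genes, those that rose more in IL-2 against no cytokine fell more in IL-21 + LDHi against IL-21 (Pearson's r = -0.637, Spearman's rho = -0.693), where all 14357 genes gave 0.112 and -0.101. These comparisons use separate libraries but 1 sequencing experiment, genes are not independent replicates, and the values are a description. For the inhibitor in IL-2 against the inhibitor in IL-21 the members gave 0.222 and 0.185, and all genes 0.327 and 0.364.

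**Figure D5:**
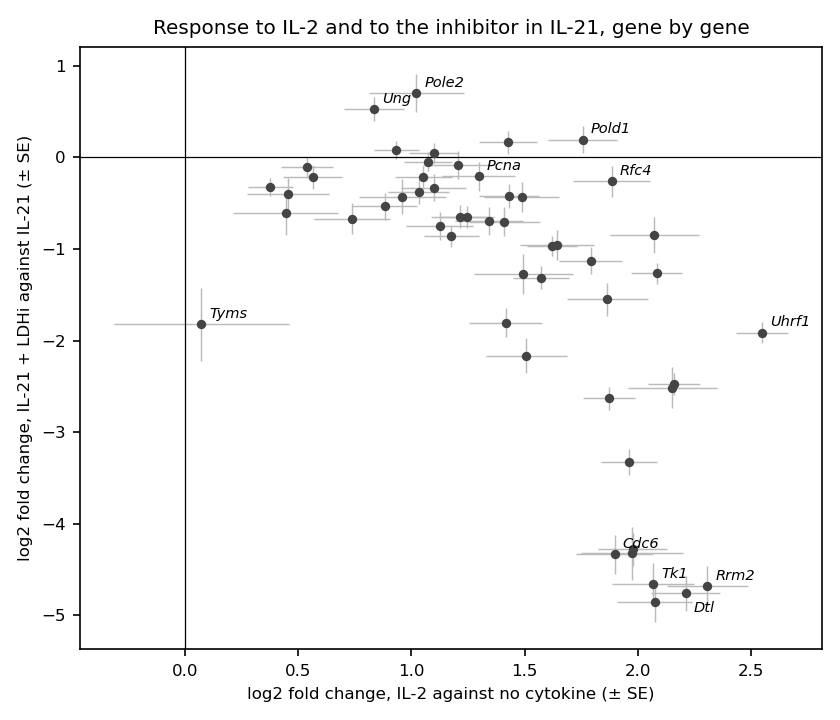
Log2 fold change in IL-2 against no cytokine (x, ± SE) and in IL-21 + LDHi against IL-21 (y, ± SE), 1 point per gene for the 52 members. Genes with larger rises on x tend to lie lower on y (r = -0.637), and Pole2 and Ung are the called genes above 0 on y.

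A further 67 genes of the pathway in 10 lists were counted in the same fit. In IL-2 against no cytokine 41 were higher, against 25.6% of all genes, and 2 were lower, against 24.8% (Mcm9, -0.43 ± 0.14, and Samhd1, -0.54 ± 0.12). With the inhibitor in IL-21 31 were lower, where 20.3% of all genes were, and 8 of 67 were higher, a share near the 11.1% of all genes. In IL-2 11 of 67 were lower and 4 higher, where 21.6% of all genes were lower and 17.8% higher, so neither count exceeds the share of all genes. All 4 S phase cyclin genes fell in IL-21, with Ccna2, the S phase cyclin A, at 0.667 and 0.794 RPKM with IL-21 + LDHi, 29.4 and 30.5 with IL-21 alone, 70.97 and 74.1 with IL-2 + LDHi, 92.3 and 78.3 with IL-2 alone, and 17.2 and 20.1 without cytokine. It changed by -5.40 ± 0.20 (adjusted p = 4.12e-07). The genes called higher with inhibitor in IL-21 were Mcm9 (0.50 ± 0.14), Cdc7 (0.69 ± 0.15), Donson (0.44 ± 0.11), Pole4 (0.68 ± 0.14), and 4 of 9 replication checkpoint genes: Timeless (0.92 ± 0.12), Atr (0.79 ± 0.17), Atrip (0.67 ± 0.14) and Rad9a (0.30 ± 0.10). In the same checkpoint list Chek1 and Wee1 fell (-3.70 ± 0.38 and -2.21 ± 0.24). E2f7 and E2f8, the repressor E2Fs, fell by log2 changes of -5.02 ± 0.26 and -5.08 ± 0.37, below the lowest member value (-4.86, Mcm10). Chek1, Wee1, E2f7 and E2f8 were named after their values were seen. Of the other genes with the highest level in their lists, Mcmbp, Chtf8, Rnaseh2c and Rbbp4 were not called with inhibitor in IL-21, and Topbp1, Pold4, Samhd1 and Tfdp1 fell, by log2 changes of -0.39 ± 0.12, -0.71 ± 0.17, -0.73 ± 0.12 and -1.21 ± 0.11.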

How the data were processed

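RNA from mouse CD8+ T cells was sequenced as 10 libraries on an Illumina HiSeq3000. Read counts and RPKM per transcript were deposited by the authors, per the file headers. The submitters' processing notes name mm10, Bowtie2 2.2.6, TopHat2 2.2.1, SAMtools 0.1.8, bedtools 2.25.0 and edgeR, and none of these sources states how strand was counted. RPKM divide by the authors' totals, so a library with fewer reads on transcripts has lower RPKM throughout, while the tests scale on the counts.

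Of the transcripts listed for a symbol, the most-read one over the 10 libraries was kept. Counts were tested in edgeR 4.0.16 (R 4.3.3) by the quasi-likelihood test with TMM scaling and robust fitting, after filtering (at least 10 counts, 15 in total), in 1 fit of all 10 libraries with 5 group means. That left 14357 genes with a common biological coefficient of variation of 0.171. The p-values are two-sided, with Benjamini-Hochberg adjustment across all of these, and the SE is the log2 fold change divided by the root of F. The script was tested on simulated data. Alternatives were limma 3.58.1, DESeq2 1.42.0, other scaling, no filter, other transcripts, fewer groups, a replicate block and each library left out.

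Values per library are given for the member with the highest mean RPKM in each role, for the 2 called members that moved furthest up or down in a comparison, and for members called against the majority. From the other lists, the gene with the highest mean RPKM and those called against the majority are named. Genes named outside this rule were chosen after their values were seen, Cdc6, Orc1, Cdc45 and the paired subunits among them. The members and lists were chosen with earlier results of these data known.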

Additional observations from a re-analysis of the deposited data

Results flagged for a closer look

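For 28 members the inhibitor's effect in IL-21 differed from its effect in IL-2 by the test of the difference itself (edgeR's quasi-likelihood test, adjusted p below 0.05). Values are the log2 effect in IL-21 minus that in IL-2. In origin licensing they were -4.05 for Orc1, -4.33 for Cdc6, 0.62 for Cdt1 and -1.30 for Gmnn. In the helicase and its activation they were -0.68 for Mcm2, -0.57 for Mcm3, -1.44 for Mcm5, -4.26 for Mcm10, -2.97 for Cdc45 and -1.91 for Gins2. Among polymerases and the clamp loader they were -1.04 for Pola1, -0.49 for Pola2, -0.83 for Pole, 0.51 for Rfc1 and -0.79 for Rfc5. In fragment maturation and deoxynucleotide supply they were -1.18 for Fen1, -1.97 for Lig1, -1.89 for Rrm1, -4.71 for Rrm2, -2.44 for Tyms and -4.34 for Tk1. In the other roles they were -2.34 for Chaf1a, -0.64 for Chaf1b, -1.49 for Uhrf1, -2.09 for E2f1, -4.40 for Clspn, -3.96 for Dtl and 0.60 for Msh6. Of the 25 negative values 18 were called under each of 19 alternatives, and of the 3 positive values 0 were.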

How the results depend on the processing

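Over 19 alternatives, 8468 of the values of the members kept their side of the threshold, 283 lost a call, 140 gained 1 and 1 was counted as reversed. The last was Rpa2 in IL-21 against no cytokine, -0.42 without IL-21 replicate 1, the low end of a range that reaches 0.46 without IL-21 replicate 2. Uncalled values that changed sign are among the 8468, such as Cdc6 with the inhibitor in IL-2, which ran from -0.06 to 0.11. The alternative with the most-read coding transcript was chosen after seeing the data. Fitting only the groups compared gave 0 genes higher in IL-21 than without cytokine, 6 higher and 25 lower with inhibitor in IL-2, 0 higher with inhibitor in IL-21, and 1 higher in IL-21 + LDHi than in IL-2 + LDHi. limma on log2(RPKM + 1), which understates low genes, gave 5 higher in IL-21 than without cytokine, 1 higher and 6 lower with inhibitor in IL-2, 2 higher in IL-21 + LDHi than without cytokine, and 0 positive differences between the inhibitor effects. Library size alone gave 4 higher and 6 lower with inhibitor in IL-2 and 0 positive differences, and it moved the median log2 change of all genes by over 0.1 in this comparison (0.13), in IL-2 against no cytokine (-0.17), and in the difference (-0.22). DESeq2 gave 13 higher in IL-21 than without cytokine. With each library left out in turn, counts higher and lower ran from 47 to 51 and 0 to 0 (IL-2 against no cytokine), 5 to 17 and 0 to 2 (IL-21 against no cytokine), 0 to 1 and 42 to 47 (IL-21 against IL-2), 0 to 4 and 2 to 21 (inhibitor in IL-2), 0 to 3 and 26 to 37 (inhibitor in IL-21), 0 to 1 and 44 to 50 (IL-21 + LDHi against IL-2 + LDHi), 45 to 52 and 0 to 0 (IL-2 + LDHi against no cytokine), 2 to 4 and 22 to 30 (IL-21 + LDHi against no cytokine), and 0 to 4 and 18 to 29 (the difference). The cause was not tested. Replicate numbers did not pair the libraries, since the correlation of their deviations ran from -0.147 to 0.483, and the replicate block moved no count by over 1.5 times. Genes near 0 in IL-21 + LDHi, such as Orc1 with 9 reads in a library, have the least depth.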
